A study of Mus musculus with 14 samples.

Results

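The lipid droplet coat and turnover genes are 10 genes taken by symbol from the deposited count table of 24054 genes. They are the perilipins Plin2, Plin3, Plin4 and Plin5, the CIDE genes Cidea and Cidec, the lipase gene Pnpla2 with its inhibitor G0s2, and the acyltransferases Dgat1 and Dgat2. All 10 were found in the table, and 9 passed the filter on low counts. Cidec did not pass it and was not tested. Messenger RNA of left ventricles of C56Bl6 mice, as the labels spell the strain, was sequenced in 14 libraries of 3 groups. In the 5 libraries labelled HFpEF-FoxO1-sh, mice were kept for 6 weeks on High-Fat feed plus L-NAME, which inhibits the making of nitric oxide, and were given an adeno-associated virus (AAV) with a short hairpin RNA against FoxO1 for 4 weeks. The 4 HFpEF-scr libraries came from mice with the same diet and L-NAME for 6 weeks and an AAV with a scrambled hairpin for 4 weeks. A control diet was fed for 10 weeks in the 5 Control libraries. HFpEF stands for heart failure with preserved ejection fraction. Both HFpEF groups carry an AAV and none is named for the controls. Diet, its length of 6 or 10 weeks, L-NAME and AAV therefore cannot be told apart in a comparison with Control. The age and sex of the mice, the promoter of the hairpins and the cells that the AAV reached are not given in the sources used here. Whether each library is a mouse of its own is not stated, and a p here then covers only the variation among libraries, which may be technical.

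Lipid droplets store triacylglycerol, which the enzymes encoded by Dgat1 and Dgat2 complete by adding a fatty acid to diacylglycerol. Perilipins coat the droplet and govern the access of lipases, CIDE proteins pass lipid from one droplet to another, and the lipase of Pnpla2, known as ATGL, takes off the first fatty acid. In heart muscle the droplets turn over fast, and fatty acids released from them feed the mitochondria and act on PPAR-alpha, a nuclear receptor that is known to raise several of these genes.

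Library totals ran from 13174117.75 to 21247155.37 expected counts, and 13588 genes were tested. Levels are CPM, counts per 1000000 after scaling by TMM, and changes are log2 fold changes ± SE from a quasi-likelihood fit in edgeR, with a positive sign for a higher level in the group given before "against". Genes were called at a Benjamini-Hochberg adjusted p under 0.05 over all genes tested, and adjusted p below are of this kind. Foxo1, the target of the hairpin, averaged 42.4 ± 2.56 CPM in the libraries labelled HFpEF-FoxO1-sh (SD, n = 5), 43.5 ± 3.74 CPM in HFpEF-scr (n = 4) and 44.0 ± 1.93 CPM in Control (n = 5). Its log2 fold change between the libraries labelled HFpEF-FoxO1-sh and HFpEF-scr was -0.04 ± 0.06 (adjusted p = 0.78), so the label is used as given and is not borne out by a lower transcript level. All 15 heart muscle markers were tested, at 111500 to 122400 summed CPM in HFpEF-FoxO1-sh, 106500 to 118000 in HFpEF-scr and 121700 to 129500 in Control, and 6 of them were called lower in HFpEF-scr than in Control. The share of all genes called lower there was 3.70%. Of 15 adipocyte markers 6 were tested. Adipoq and Plin1 had 0 to 5 counts per library, Lep 0 to 2, Ucp1 0 or 1 and Retn 0 in all 14 libraries. Lipe had 573 to 1058 counts per library, Thrsp 183 to 475 and Aoc3 182 to 329. HFpEF-scr 1 stood apart in red cell genes, with 6081 summed CPM against 541 as the lowest of the HFpEF-scr libraries and 1704 as the highest of the HFpEF-FoxO1-sh libraries, and HFpEF-scr 1 and 2 had the highest immediate early scores of the 14, 6.17 and 6.54 in mean log2 CPM. Results are therefore also given without these 2 libraries where that changes a call. In bulk tissue, fewer cells of a type and less RNA per cell cannot be told apart.

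Plin4 and Plin5 are neighbours on chromosome 17, both on the minus strand, with 1797 bases between them and no protein-coding gene in the gap, and both were called higher in each HFpEF group than in Control. The stretches from 250 bases before to 50 bases after the start of these 2 genes and of Plin2 are shown so that the neighbours can be set beside another perilipin, and because the half-site AGGTCA, bound by nuclear receptors, is found in 2 of the 3. Sequences are from RefSeq on GRCm38.p6, 5′ to 3′ on the strand of the gene, and capitals mark AGGTCA or its reverse complement TGACCT. The Plin2 stretch lies at chr4:86670010-86670309, that of Plin4 at chr17:56109733-56110032 and that of Plin5, the first of 2 listed starts, at chr17:56117499-56117798, each on the minus strand.
Plin2: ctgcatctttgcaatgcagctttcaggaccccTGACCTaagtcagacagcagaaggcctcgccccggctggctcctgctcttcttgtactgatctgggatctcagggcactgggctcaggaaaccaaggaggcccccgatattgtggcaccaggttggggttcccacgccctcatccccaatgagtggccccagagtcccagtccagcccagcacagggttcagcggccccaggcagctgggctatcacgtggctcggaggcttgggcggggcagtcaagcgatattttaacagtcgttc
Plin4: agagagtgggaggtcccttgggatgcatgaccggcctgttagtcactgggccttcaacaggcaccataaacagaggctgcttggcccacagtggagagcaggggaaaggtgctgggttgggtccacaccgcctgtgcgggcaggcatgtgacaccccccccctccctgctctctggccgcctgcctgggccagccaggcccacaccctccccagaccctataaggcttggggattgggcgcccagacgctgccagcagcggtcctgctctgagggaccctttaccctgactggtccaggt
Plin5: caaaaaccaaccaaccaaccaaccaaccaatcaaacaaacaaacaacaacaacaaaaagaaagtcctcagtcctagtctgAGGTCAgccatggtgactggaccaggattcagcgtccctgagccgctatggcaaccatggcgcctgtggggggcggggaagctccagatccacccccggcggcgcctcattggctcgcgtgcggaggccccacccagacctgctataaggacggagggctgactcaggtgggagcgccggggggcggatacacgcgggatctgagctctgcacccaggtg
Entries were found for 7 of the 10 genes, and Cidea, Dgat1 and Dgat2 are named only. Both strands were searched for 6 motifs. AGGTCA was found in the Plin2 stretch at -218 to -213 on the opposite strand, in the Plin5 stretch above at -170 to -165, and in that of the second Plin5 start at 14 to 19. Among the 7 genes with an entry, only Plin2 and Plin5 held AGGTCA, and the stretches shown were chosen partly for it. AGGTCA occurs in 16.3% of all 32851 RefSeq promoter stretches of the same length. The exact direct repeat of 2 copies of AGGTCA with 1 base between them, a form that PPAR with RXR binds, occurs in 0.0396% of all stretches, and the forkhead core TGTTTAC, bound by FoxO factors, in 3.65%. Neither was found as an exact match in the stretches of these 7 genes. Only 13 of the 32851 stretches hold the exact repeat, so its absence here is uninformative. Looser matches were not searched. CACGTG was found once, in Plin2 (7.15% of all stretches), TATAAA in none (13.6%), and CCAAT in those of Plin2, Plin3, Plin4 and the first start of Plin5 (37.4%). CACGTG did not overlap AGGTCA, nor did CCAAT. A match describes letters and not binding.

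In HFpEF-FoxO1-sh against Control, which sets the whole regime with the FoxO1 hairpin against the control diet, 4 of the 9 tested droplet genes were called, all higher, against 13.0% of all genes tested in either direction and 6.68% higher. They were Cidea, Plin4, Plin5 and Pnpla2. Values of the groups did not overlap for Cidea, Plin4, Pnpla2 and Plin2, against 12.1% of all genes, although Plin2 was not called. The median log2 fold change of the 9 genes was 0.24, and that of all genes was -0.003. None of the 4 calls was lost in any of the 20 alternative fits. Of 13 macrophage markers, none of them at 0 in any library, 10 were called lower in HFpEF-FoxO1-sh than in Control (median -0.55), with summed levels of 166 to 212 CPM in HFpEF-FoxO1-sh and 242 to 326 CPM in Control, and their part in the calls of the droplet genes was not tested.

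The same regime with a scrambled hairpin is set against the control diet by HFpEF-scr against Control, where 4 of the 9 genes were called, against 7.37% of all genes tested. Cidea, Plin5 and Plin4 were higher in HFpEF-scr, against 3.66% of all genes, and Plin3 was lower, against 3.70%. Only Cidea had groups without overlap, against 8.93% of all genes. The median of the 9 genes was 0.15, and that of all genes was 0.002. The call of Cidea held in all 19 alternatives, whereas each of the other 3 was lost in some refits without 1 library. This comparison and the one before it share the Control libraries, so their calls are not independent of each other.

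The hairpin itself, as labelled, separates HFpEF-FoxO1-sh and HFpEF-scr, and here 1 of the 9 genes, Dgat2, was called, against 3.58% of all genes tested. It was higher in HFpEF-FoxO1-sh, against 1.32% of all genes, and was also the 1 gene whose groups did not overlap, against 8.34% of all genes. The median of the 9 genes was 0.09, and that of all genes was 0.004.

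**Figure D1:**
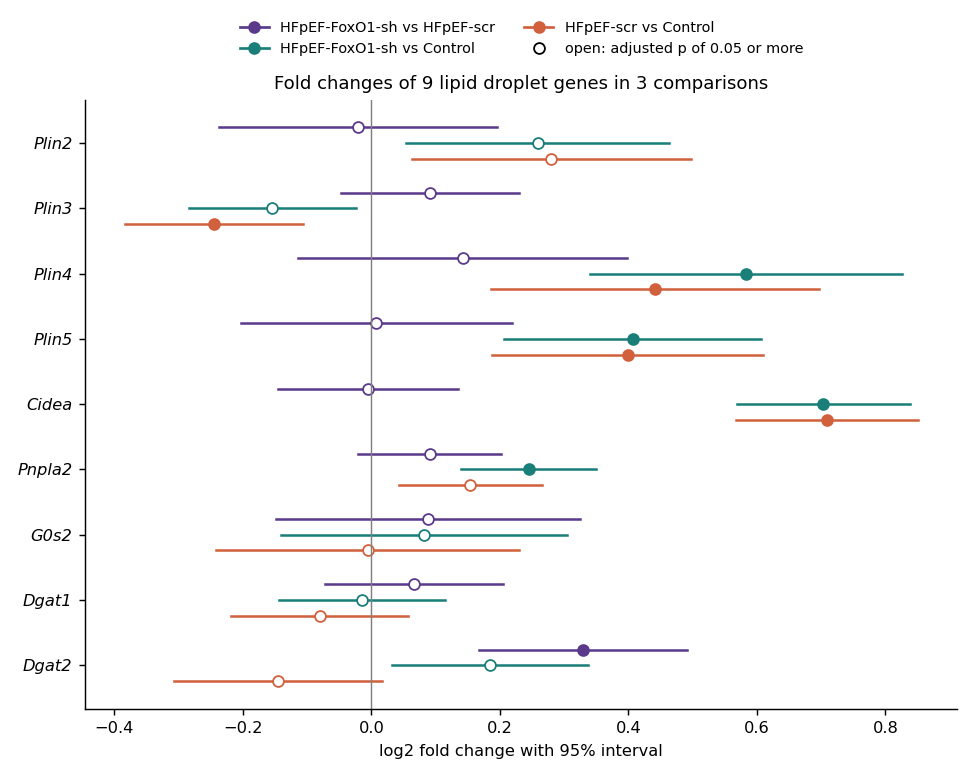
Log2 fold change of the 9 tested droplet genes (x axis) with its 95% interval in 3 comparisons, drawn in separate colours, with filled points for an adjusted p under 0.05. Cidea sits near 0.70 in both comparisons with Control, Plin3 below 0 in both, and Dgat2 is the only filled point of HFpEF-FoxO1-sh against HFpEF-scr.

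Among the coat genes, Plin4 had the largest log2 fold change of the perilipins in both comparisons with Control. In HFpEF-scr against Control this order rested on HFpEF-scr 4. Without that library Plin4 gave 0.30, Plin5 0.37 and Plin2 0.39. Plin4 encodes a long amphipathic coat protein of fat, heart and skeletal muscle. The gene lies at 56100591 to 56109803 of chromosome 17, and 17 bases, or 0.294% of its exons, overlap Hdgfl2 on the opposite strand. Plin4 had 508.5, 508, 605, 502 and 616 CPM in HFpEF-FoxO1-sh libraries 1 to 5, 419.6, 527, 404 and 636 CPM in HFpEF-scr 1 to 4, and 387, 321, 338, 435 and 348 CPM in Control 1 to 5. All 5 HFpEF-FoxO1-sh libraries lay above every control, and in HFpEF-scr 2 of the 4 did not reach the highest control. Its log2 fold change was 0.58 ± 0.11 (adjusted p = 0.00361) in HFpEF-FoxO1-sh against Control and 0.44 ± 0.12 (adjusted p = 0.0375) in HFpEF-scr against Control. HFpEF-FoxO1-sh against HFpEF-scr gave 0.14 ± 0.12 (adjusted p = 0.557), with a 95% interval from -0.11 to 0.40. In HFpEF-scr against Control the call was lost in 5 of 9 refits, namely those that left out Control 2 (adjusted p = 0.0848), Control 3 (0.0849), Control 5 (0.0756), HFpEF-scr 2 (0.0912) or HFpEF-scr 4 (0.122), the library with 636 CPM. It was also lost without HFpEF-scr 1 and 2 together (0.51, adjusted p = 0.0629), in a fit of the 2 groups alone (0.44, adjusted p = 0.0789) and with the immediate early score as a covariate (0.36, adjusted p = 0.176).

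Plin5 encodes the perilipin of oxidative tissues, which binds ATGL and ties droplets to mitochondria. It lies at 56111601 to 56117596 of chromosome 17. Plin5 had 142, 168, 166.5, 165 and 154 CPM in HFpEF-FoxO1-sh libraries 1 to 5, 149, 179, 139.6 and 166 CPM in HFpEF-scr 1 to 4, and 129.9, 99.2, 116, 148 and 107 CPM in Control 1 to 5. Control 4 was the highest control, and it reached into the range of both HFpEF groups. The log2 fold change was 0.41 ± 0.09 (adjusted p = 0.0102) in HFpEF-FoxO1-sh against Control, 0.40 ± 0.10 (adjusted p = 0.0249) in HFpEF-scr against Control and 0.01 ± 0.10 (adjusted p = 0.978) in HFpEF-FoxO1-sh against HFpEF-scr. The 95% interval of the last of these ran from -0.20 to 0.22. In HFpEF-scr against Control the call was lost in 5 of 9 refits, when Control 2 (adjusted p = 0.055), Control 3 (0.0595), Control 5 (0.0576), HFpEF-scr 2 (0.0793) or HFpEF-scr 4 (0.0674) was left out. Other settings that ended it were leaving out HFpEF-scr 1 and 2 together (0.34, adjusted p = 0.123), a fit of the 2 groups alone (0.40, adjusted p = 0.067) and the immediate early score as a covariate (0.29, adjusted p = 0.158).

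Plin2 encodes the coat protein found on droplets of most cells, and it lies at 86648386 to 86670060 of chromosome 4 on the minus strand. Plin2 had 64.5, 59.5, 59.7, 66.95 and 56.3 CPM in HFpEF-FoxO1-sh libraries 1 to 5, 78.96, 60.8, 61.8 and 47.7 CPM in HFpEF-scr 1 to 4, and 48.7, 48.1, 55.5, 54.6 and 49.7 CPM in Control 1 to 5. The HFpEF-FoxO1-sh libraries all lay above the controls, while HFpEF-scr held both the highest value of all 14 libraries and the lowest. No comparison was called, with 0.26 ± 0.10 (adjusted p = 0.0936) in HFpEF-FoxO1-sh against Control, 0.28 ± 0.10 (adjusted p = 0.108) in HFpEF-scr against Control and -0.02 ± 0.10 (adjusted p = 0.94) in HFpEF-FoxO1-sh against HFpEF-scr. Without HFpEF-scr 4, at 47.7 CPM, HFpEF-scr against Control passed the threshold (0.39, adjusted p = 0.0202). Without HFpEF-scr 1, at 78.96 CPM, it was 0.14 (adjusted p = 0.315), and without HFpEF-scr 1 and 2 together 0.09 (adjusted p = 0.633). HFpEF-FoxO1-sh against Control passed it in a fit of these 2 groups alone (0.26, adjusted p = 0.00966) and without HFpEF-scr 1 and 2 (0.26, adjusted p = 0.0267), which enter only through the shared spread.

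Plin3 encodes a soluble perilipin that moves onto nascent droplets. It lies at 56277476 to 56292873 of chromosome 17 on the minus strand, 160 kb from Plin5 with 7 protein-coding genes between them. Its expected counts were not whole in 92.9% of libraries, while those of the other 9 genes were whole in all, so reads of Plin3 may have been divided with another gene, and its values are less certain. Plin3 had 176, 168, 192, 174 and 177 CPM in HFpEF-FoxO1-sh libraries 1 to 5, 177, 158, 162 and 168 CPM in HFpEF-scr 1 to 4, and 221, 187, 207, 169.7 and 202 CPM in Control 1 to 5. Control 4 fell within the range of both HFpEF groups, and the other controls were higher than every HFpEF-scr library. Plin3 was called lower in HFpEF-scr than in Control, -0.25 ± 0.07 (adjusted p = 0.0331), and was not called in HFpEF-FoxO1-sh against Control, -0.15 ± 0.06 (adjusted p = 0.113), or in HFpEF-FoxO1-sh against HFpEF-scr, 0.09 ± 0.07 (adjusted p = 0.472). The first call was lost in 6 of 9 refits, on omission of Control 1 (adjusted p = 0.0574), Control 3 (0.0822), Control 5 (0.0655), HFpEF-scr 2 (0.0891), HFpEF-scr 3 (0.0696) or HFpEF-scr 4 (0.0663), and likewise without HFpEF-scr 1 and 2 together (adjusted p = 0.0938), in a fit of the 2 groups alone (adjusted p = 0.0789) and with the immediate early score (adjusted p = 0.101). Without Control 4, HFpEF-FoxO1-sh against Control was called as well (-0.20, adjusted p = 0.0221).

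**Figure D2:**
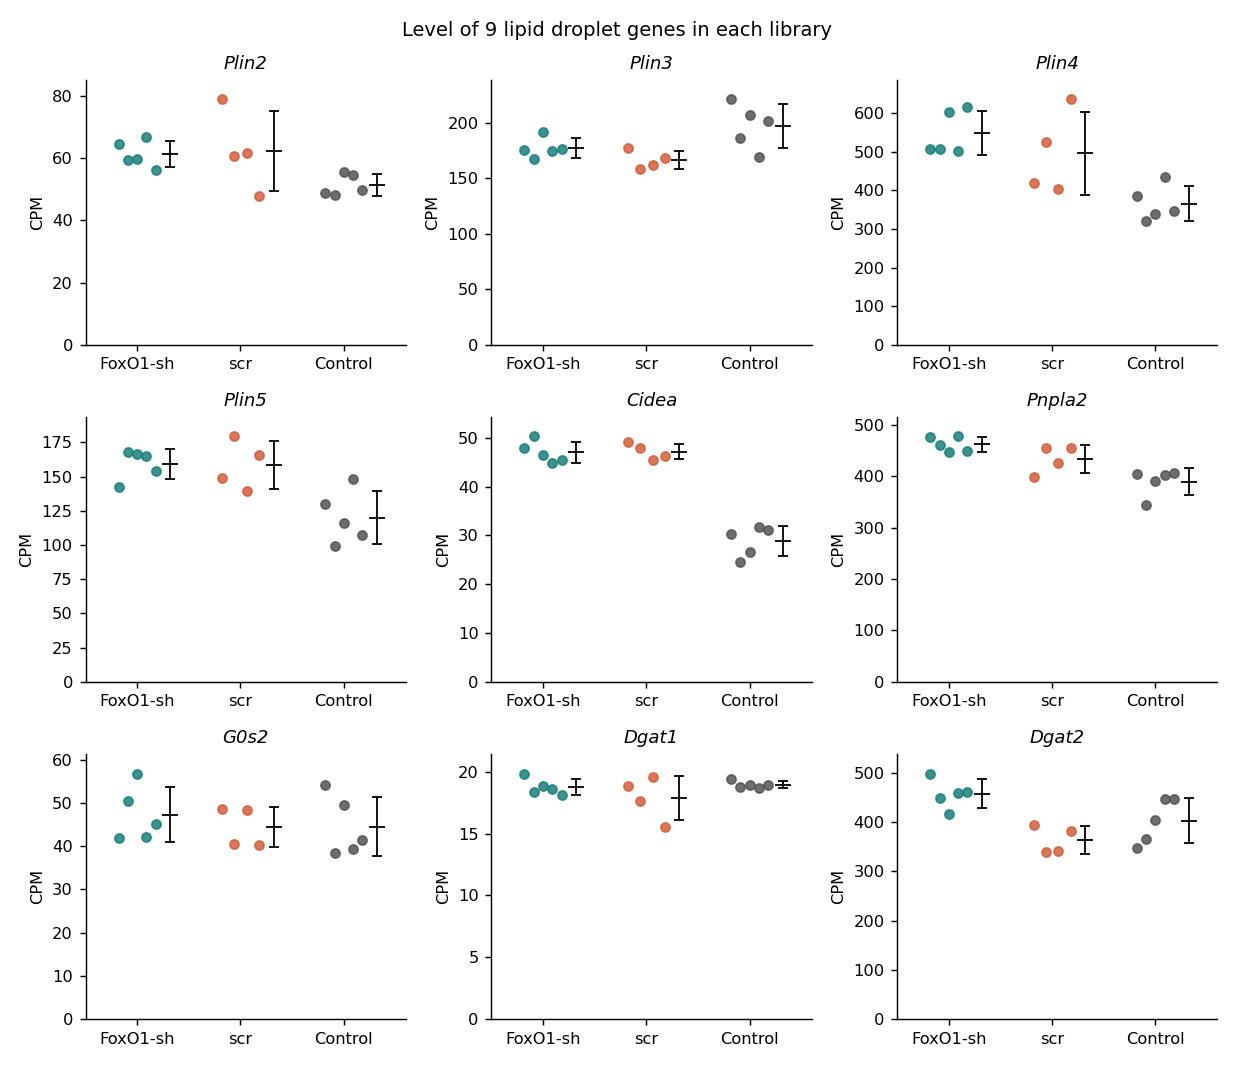
Level in CPM (y axis, from 0) of each of the 9 tested droplet genes in every library, with points for libraries of HFpEF-FoxO1-sh, HFpEF-scr and Control, and mean ± SD beside each group (n = 5, 4 and 5). For Cidea all 9 HFpEF libraries lie between 44.8 and 50.3 CPM and all controls between 24.6 and 31.7 CPM, and Dgat1 stays between 15.5 and 19.9 CPM throughout.

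Of Cidea and Cidec, Cidea was measured well and was higher in both HFpEF groups than in Control. Its protein gathers at the contact of 2 droplets and lets lipid pass into the larger one, and the gene is best known from brown fat. It lies at 67343604 to 67367785 of chromosome 18 on the plus strand. Cidea had 47.9, 50.3, 46.6, 44.8 and 45.5 CPM in HFpEF-FoxO1-sh libraries 1 to 5, 49.05, 47.9, 45.5 and 46.3 CPM in HFpEF-scr 1 to 4, and 30.4, 24.6, 26.5, 31.7 and 31.02 CPM in Control 1 to 5. Every HFpEF library lay above every control, and the HFpEF groups overlapped each other. HFpEF-FoxO1-sh averaged 47.0 ± 2.16 CPM (SD, n = 5), HFpEF-scr 47.2 ± 1.59 CPM (n = 4) and Control 28.8 ± 3.12 CPM (n = 5). Cidea ranked 12th by p of all genes in HFpEF-FoxO1-sh against Control, 0.70 ± 0.06 (adjusted p = 6.46e-06), a rise of 62.8% with a 95% interval from 48.3% to 78.7%. In HFpEF-scr against Control it ranked 5th, 0.71 ± 0.07 (adjusted p = 2.87e-05), a rise of 63.4% with an interval from 48.2% to 80.3%. Between HFpEF-FoxO1-sh and HFpEF-scr the estimate was -0.01 ± 0.07 (adjusted p = 0.976), and its interval reached from -9.56% to 9.74%. Cidea had 331 to 721 counts per library. Of the adipocyte markers, Adipoq, Plin1 and Ucp1 did not exceed 5 counts in any library. Others of the list were higher, with 573 to 1058 counts for Lipe, 183 to 475 for Thrsp and 182 to 329 for Aoc3. The 15 adipocyte markers summed to 99.4 to 112 CPM in HFpEF-FoxO1-sh, 92.8 to 108 CPM in HFpEF-scr and 80.1 to 89.9 CPM in Control. Much of this sum is Lipe, a lipase gene also counted below under lipolysis. Lipe averaged 67.2 CPM in HFpEF-FoxO1-sh, 63.1 in HFpEF-scr and 46.9 in Control. Thrsp averaged 17.6 CPM in HFpEF-FoxO1-sh, 16.65 in HFpEF-scr and 20.5 in Control. Of the 6 adipocyte markers that were tested, 1 was called higher in HFpEF-FoxO1-sh than in Control and 2, Lipe and Aoc3, in HFpEF-scr than in Control. The shares of all genes called higher in these comparisons were 6.68% and 3.66%. The part of the adipocyte markers in the Cidea difference was not tested.

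Cidec encodes a CIDE protein that shapes the single large droplet of white fat cells. The gene lies at 113424634 to 113435760 of chromosome 6 on the minus strand. It had 4, 0, 3, 0 and 0 counts in HFpEF-FoxO1-sh libraries 1 to 5, 0, 2, 0 and 0 in HFpEF-scr 1 to 4, and 1, 5, 0, 0 and 2 in Control 1 to 5. For the 8 libraries at 0, a limit of 3 counts allows at most 0.192 to 0.224 CPM, counting error only, and no difference between the groups was detectable at this depth.

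For the release of fatty acids, Pnpla2 rose in HFpEF-FoxO1-sh and G0s2 was not called in any comparison. Pnpla2, at 141455198 to 141460743 of chromosome 7 on the plus strand, encodes ATGL. Pnpla2 had 476, 461, 446, 477 and 449 CPM in HFpEF-FoxO1-sh libraries 1 to 5, 399, 455, 426 and 454 CPM in HFpEF-scr 1 to 4, and 403, 345, 390.3, 402 and 407 CPM in Control 1 to 5. The HFpEF-FoxO1-sh libraries lay above all controls, and the HFpEF-scr libraries overlapped both other groups. Pnpla2 was called higher in HFpEF-FoxO1-sh against Control, 0.24 ± 0.05 (adjusted p = 0.00436), a rise of 18.5% with a 95% interval from 10.2% to 27.5%. HFpEF-FoxO1-sh against HFpEF-scr gave 0.09 ± 0.05 (adjusted p = 0.361) and HFpEF-scr against Control 0.15 ± 0.05 (adjusted p = 0.0837), neither of them called, although HFpEF-scr against Control passed the threshold without HFpEF-scr 1 (0.19, adjusted p = 0.0354).

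G0s2, at 193272161 to 193273217 of chromosome 1 on the minus strand, encodes a small protein that binds ATGL and blocks it. G0s2 had 41.96, 50.5, 56.8, 42.2 and 45.2 CPM in HFpEF-FoxO1-sh libraries 1 to 5, 48.7, 40.6, 48.5 and 40.3 CPM in HFpEF-scr 1 to 4, and 54.2, 38.4, 49.5, 39.5 and 41.5 CPM in Control 1 to 5. The 3 groups overlapped. Its log2 fold change was 0.08 ± 0.10 (adjusted p = 0.669) in HFpEF-FoxO1-sh against Control, -0.01 ± 0.11 (adjusted p = 0.984) in HFpEF-scr against Control and 0.09 ± 0.11 (adjusted p = 0.715) in HFpEF-FoxO1-sh against HFpEF-scr. The 95% intervals ran from -0.14 to 0.30, from -0.24 to 0.23 and from -0.15 to 0.32. Per kilobase of exon, the ratio of G0s2 to Pnpla2 within a library was 0.357 ± 0.0568 in HFpEF-FoxO1-sh, 0.359 ± 0.0592 in HFpEF-scr and 0.397 ± 0.0543 in Control (SD).

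In the last step of synthesis, Dgat2 differed between the HFpEF groups and Dgat1 was not called in any comparison. Both genes encode acyl-CoA to diacylglycerol acyltransferases, which are not alike in sequence. The protein of Dgat2 also sits on droplets, while that of Dgat1 stays in the endoplasmic reticulum. Dgat2 lies at 99153658 to 99182719 of chromosome 7 on the minus strand. Dgat2 had 499, 449.9, 417, 460.3 and 462 CPM in HFpEF-FoxO1-sh libraries 1 to 5, 395, 339.9, 341 and 381 CPM in HFpEF-scr 1 to 4, and 347.5, 366.5, 404, 448 and 448 CPM in Control 1 to 5. Each HFpEF-FoxO1-sh library lay above each HFpEF-scr library, and the controls overlapped both. Dgat2 was called in HFpEF-FoxO1-sh against HFpEF-scr, 0.33 ± 0.08 (adjusted p = 0.0299), a rise of 25.6% with a 95% interval from 12.3% to 40.6%. Against Control it was 0.18 ± 0.07 (adjusted p = 0.106) in HFpEF-FoxO1-sh and -0.14 ± 0.08 (adjusted p = 0.267) in HFpEF-scr, 2 estimates on either side of 0 that were not called. The call was lost in 5 of 9 refits, those leaving out HFpEF-FoxO1-sh 1 (adjusted p = 0.0755), HFpEF-FoxO1-sh 2 (0.0527), HFpEF-FoxO1-sh 4 (0.0664), HFpEF-scr 2 (0.0722) or HFpEF-scr 3 (0.075). Without HFpEF-scr 1 and 2 together it gave 0.34 (adjusted p = 0.132).

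Other measures moved with the hairpin comparison in which Dgat2 was called. The clock index is the mean log2 CPM of Arntl, Npas2, Clock and Nfil3 less that of Per1, Per2, Per3, Nr1d1, Nr1d2, Dbp, Tef, Hlf, Ciart and Bhlhe41, genes of the opposite phase of the day. It ran from -4.14 to -3.59 in HFpEF-FoxO1-sh, from -3.51 to -1.96 in HFpEF-scr and from -3.94 to -1.31 in Control, without overlap of the HFpEF groups. With this index as a covariate Dgat2 gave 0.20 ± 0.08 (adjusted p = 0.362), and calls over all genes in this comparison went from 486 to 18. As the index did not overlap between the HFpEF groups, this fit cannot tell it apart from the hairpin. The part of the index in the Dgat2 difference was not tested. Within groups, Dgat2 and the index had Pearson r = -0.589 (permutation p = 0.069, adjusted p = 0.6 over 18 relations of members with 2 scores) and Spearman rho = -0.464 (permutation p = 0.13) over 14 libraries, and r was -0.260 without Control 1 and Control 5. Summed macrophage markers ran from 166 to 212 CPM in HFpEF-FoxO1-sh, from 223 to 281 CPM in HFpEF-scr and from 242 to 326 CPM in Control, and 3 of 13 were called lower in HFpEF-FoxO1-sh than in HFpEF-scr. The share of all genes called in either direction in that comparison was 3.58%. Of 11 fibroblast markers, 3 were called lower there, with summed levels of 1883 to 2373 CPM in HFpEF-FoxO1-sh, 2121 to 2677 CPM in HFpEF-scr and 1968 to 2353 CPM in Control. These 3 were the collagen genes Col1a1 (-0.80), Col1a2 (-0.40) and Col3a1 (-1.07). All 11 estimates were below 0, with a median of -0.34, and the other fibroblast markers were not called. No marker of either type was at 0 in any library, and the part of these markers in the Dgat2 difference was not tested.

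**Figure D3:**
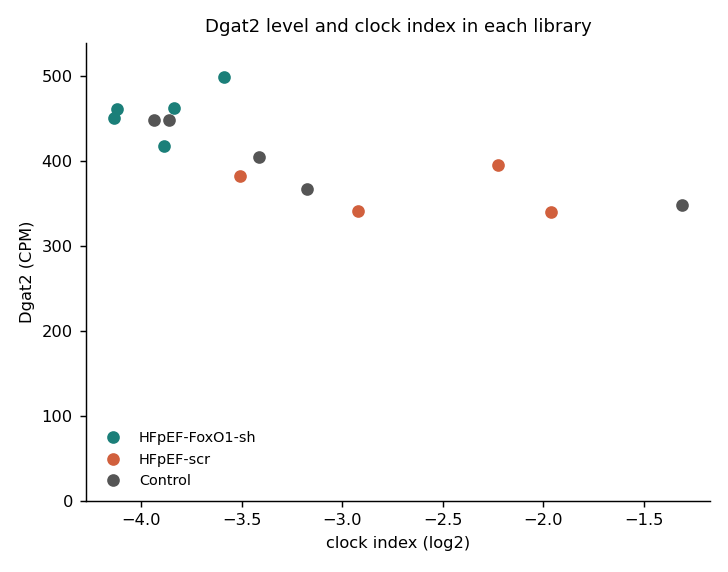
Level of Dgat2 in CPM (y axis, from 0) against the clock index in log2 units (x axis), 1 point per library, coloured by group. The HFpEF-FoxO1-sh libraries lie at 417 to 499 CPM and an index of -4.14 to -3.59, the HFpEF-scr libraries at 340 to 395 CPM and -3.51 to -1.96.

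Dgat1 lies at 76502015 to 76511953 of chromosome 15 on the minus strand. Dgat1 had 19.9, 18.4, 18.8, 18.6 and 18.1 CPM in HFpEF-FoxO1-sh libraries 1 to 5, 18.9, 17.7, 19.6 and 15.5 CPM in HFpEF-scr 1 to 4, and 19.4, 18.8, 18.9, 18.7 and 18.9 CPM in Control 1 to 5. The groups overlapped, and HFpEF-scr 4 was the lowest library. Its log2 fold change was 0.07 ± 0.07 (adjusted p = 0.622) in HFpEF-FoxO1-sh against HFpEF-scr, -0.01 ± 0.06 (adjusted p = 0.909) in HFpEF-FoxO1-sh against Control and -0.08 ± 0.07 (adjusted p = 0.493) in HFpEF-scr against Control. The 95% intervals were -0.07 to 0.20, -0.14 to 0.11 and -0.22 to 0.06. The ratio of Dgat2 to Dgat1 per kilobase within a library was 24.2 ± 1.31 in HFpEF-FoxO1-sh, 20.4 ± 3.03 in HFpEF-scr and 21.1 ± 2.59 in Control (SD).

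Levels can be set side by side between genes only per length, here as CPM per kilobase of annotated exon. In HFpEF-FoxO1-sh the medians were 152.5 for Pnpla2, 149.3 for Dgat2, 88.0 for Plin4, 79.2 for Plin5, 51.9 for G0s2, 46.4 for Plin3, 41.8 for Cidea, 17.0 for Plin2 and 6.08 for Dgat1. HFpEF-scr had the same order, with 145.7 for Pnpla2, 117.1 for Dgat2, 81.9 for Plin4, 75.4 for Plin5, 51.1 for G0s2, 43.7 for Plin3, 42.2 for Cidea, 17.4 for Plin2 and 5.98 for Dgat1. In Control, Plin3 with 53.3 stood before G0s2 with 47.6, after Pnpla2 with 133.2, Dgat2 with 131.0, Plin4 with 60.2 and Plin5 with 55.5, and before Cidea with 27.2, Plin2 with 14.2 and Dgat1 with 6.19. Neighbours that overlapped were Pnpla2 and Dgat2 in HFpEF-FoxO1-sh and Control, Plin4 and Plin5 in HFpEF-scr and Control, Plin5 and Plin3 in Control, and G0s2 and Plin3 in all 3 groups. Plin3 and Cidea overlapped in both HFpEF groups and not in Control. The muscle perilipin Plin5 exceeded the general Plin2 by a ratio of 4.38 ± 0.441 in HFpEF-FoxO1-sh, 4.45 ± 1.196 in HFpEF-scr and 3.93 ± 0.543 in Control (SD), or 2.475 in HFpEF-FoxO1-sh, 2.512 in HFpEF-scr and 2.221 in Control with the longest transcript as the length, since the annotated exons of Plin2 span 3512 bases and its longest transcript 1888.

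**Figure D4:**
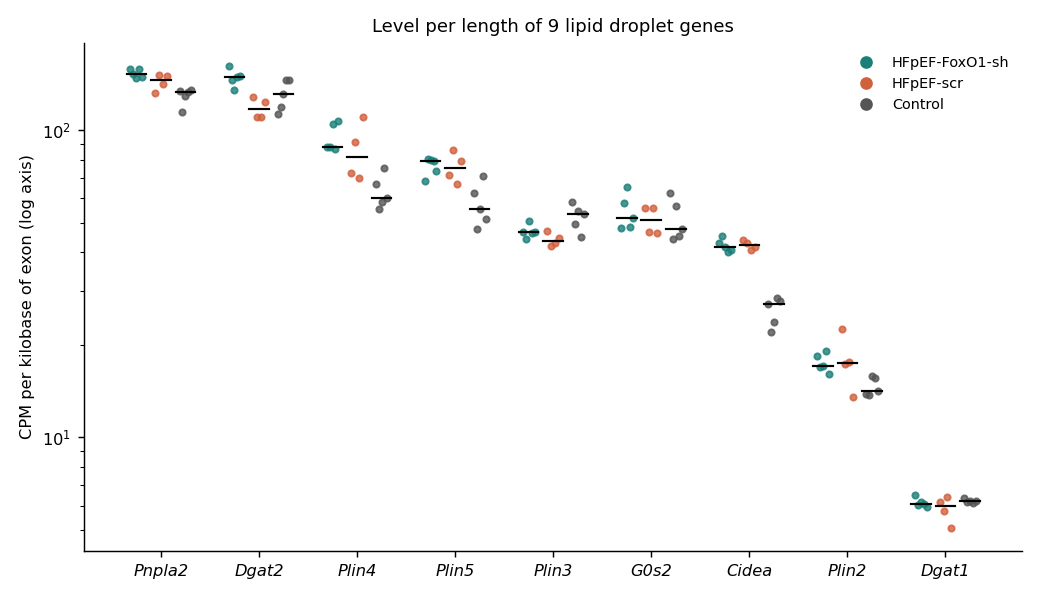
CPM per kilobase of exon (y axis, log scale) of the 9 tested droplet genes, 1 point per library and a bar at the group median, for HFpEF-FoxO1-sh, HFpEF-scr and Control. Pnpla2 and Dgat2 are highest, Dgat1 is lowest near 6, and Cidec, with 0 to 5 counts per library, is not drawn.

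Whether the droplet genes moved together between libraries was examined after taking out the group means, in log2 CPM of 14 libraries. Of 36 pairs of the 9 tested genes, 0 had an adjusted p under 0.05, and 3 had an unadjusted permutation p under 0.05. The neighbours Plin4 and Plin5 had r = 0.679 (permutation p = 0.016, adjusted p = 0.31) and rho = 0.635 (permutation p = 0.038, adjusted p = 0.55), and r = 0.626 without Control 4 and HFpEF-scr 4. Plin3 and G0s2 had r = 0.692 (permutation p = 0.018, adjusted p = 0.31) and rho = 0.688 (permutation p = 0.026, adjusted p = 0.55), and r = 0.586 without Control 1 and Control 4. Plin4 and Dgat1 had r = -0.740 (permutation p = 0.026, adjusted p = 0.31) and rho = -0.587 (permutation p = 0.085, adjusted p = 0.55), and r = -0.564 without Control 4 and HFpEF-scr 4. Measured the same way, the tested gene most like each called member was Tnrc6a for Plin4 (r = 0.928), Mapk14 for Plin5 (r = 0.978), Fabp3 for Cidea (r = 0.966), Spg7 for Pnpla2 (r = 0.891), Aup1 for Plin3 (r = 0.895) and Bcam for Dgat2 (r = 0.878). Each was picked as the highest r among tested genes, leaving out symbols of gene models such as Gm and Rik names, so it describes these libraries only. Fabp3 encodes the fatty acid carrier of heart muscle.

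Among the other genes of the pathway is a list of those that PPARs are known to raise in fatty acid use. Most of its tested genes were called higher in each HFpEF group than in Control. The list was chosen with earlier results of these data known, so its counts describe the listed genes only. In HFpEF-FoxO1-sh against Control, 26 of 32 tested PPAR-responsive genes were called higher and 0 lower, with a median of 0.52. Of all genes, 6.68% were called higher there. HFpEF-scr against Control called 21 of 32 higher and 0 lower, with a median of 0.38, against 3.66% of all genes higher. HFpEF-FoxO1-sh against HFpEF-scr called 1 of 32, higher, with a median of 0.13, against 1.32% of all genes higher. There 26 of the 32 lay above 0 and 12 had an unadjusted p under 0.05, as did 2676 of all 13588 genes tested. Decr1, which prepares unsaturated fatty acids for oxidation, gave 0.83 ± 0.06 in HFpEF-FoxO1-sh against Control (adjusted p = 6.52e-07) and 0.70 ± 0.06 in HFpEF-scr against Control (adjusted p = 1.1e-05). Fabp3 was 0.62 ± 0.05 higher in HFpEF-FoxO1-sh than in Control (adjusted p = 1.13e-06), and Cd36, the fatty acid translocase, 0.49 ± 0.05 higher in HFpEF-scr than in Control (adjusted p = 2.9e-05). Of the 15 heart muscle markers, 4 were called lower in HFpEF-FoxO1-sh and 6 in HFpEF-scr than in Control. The shares of all genes called in either direction in these comparisons were 13.0% and 7.37%.

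The receptors and coactivators were called at about the share of all genes, 13.0% in HFpEF-FoxO1-sh against Control and 7.37% in HFpEF-scr against Control. Of 18 genes of PPAR, PGC-1 and partner regulators, 1 was higher and 1 lower in HFpEF-FoxO1-sh against Control (median 0.02), 1 was higher in HFpEF-scr against Control (median 0.02) and 0 of 18 were called in HFpEF-FoxO1-sh against HFpEF-scr by edgeR, DESeq2 or limma (median -0.04), with 1 at an unadjusted p under 0.05. In that last comparison 2676 of all 13588 genes tested had such a p. Foxo4, a relative of Foxo1, was higher by 0.32 ± 0.05 in HFpEF-FoxO1-sh than in Control (adjusted p = 0.00126) and by 0.25 ± 0.06 in HFpEF-scr than in Control (adjusted p = 0.0157), a call lost in HFpEF-scr without HFpEF-scr 4 (adjusted p = 0.0514). Lpin1, whose protein makes diacylglycerol and also acts as a coactivator, is in this list and in that of synthesis and changed by -0.35 ± 0.07 in HFpEF-FoxO1-sh against Control (adjusted p = 0.00398). The count of this list in HFpEF-scr against Control, 1, became 3 when HFpEF-scr 1 was left out, 2 when HFpEF-scr 3 was and 0 when HFpEF-scr 4 was.

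Of 13 tested genes of earlier triacylglycerol synthesis, 3 were called higher and 2 lower in HFpEF-FoxO1-sh against Control, 1 higher in HFpEF-scr against Control and 0 in HFpEF-FoxO1-sh against HFpEF-scr by edgeR, DESeq2 or limma, where 3 had an unadjusted p under 0.05. In that last comparison 2676 of all 13588 genes tested had an unadjusted p under 0.05. The medians were -0.03, -0.001 and 0.01, and the shares of all genes called in either direction were 13.0%, 7.37% and 3.58%. Agpat3, which adds the second fatty acid, averaged 258.5 ± 15.8 CPM in HFpEF-FoxO1-sh, 279 ± 21.2 CPM in HFpEF-scr and 199.6 ± 16.2 CPM in Control (SD), and changed by 0.37 ± 0.06 (adjusted p = 0.000928) and 0.48 ± 0.06 (adjusted p = 0.000384) against Control. Lpin3, a minor form of the phosphatidate phosphatase, changed by -0.73 ± 0.12 in HFpEF-FoxO1-sh against Control (adjusted p = 0.00104). Without Control 4 or without HFpEF-scr 1, 3 genes of the synthesis list were called in HFpEF-scr against Control.

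Of 19 tested genes of lipolysis and its regulators, 3 were called higher and 1 lower in HFpEF-FoxO1-sh against Control, 2 higher and 1 lower in HFpEF-scr against Control and 0 in HFpEF-FoxO1-sh against HFpEF-scr by edgeR, DESeq2 or limma, where 1 had an unadjusted p under 0.05. In that last comparison 2676 of all 13588 genes tested had an unadjusted p under 0.05. The medians were 0.04, 0.06 and 0.05, and the shares of all genes called in either direction were 13.0%, 7.37% and 3.58%. Lipe, the hormone-sensitive lipase that follows ATGL, was 0.52 ± 0.10 higher in HFpEF-FoxO1-sh than in Control (adjusted p = 0.00294) and 0.43 ± 0.10 higher in HFpEF-scr than in Control (adjusted p = 0.0223). Ces1d, a carboxylesterase with triacylglycerol hydrolase activity, was 0.71 ± 0.13 higher (adjusted p = 0.00277) and Pnpla8, a phospholipase of mitochondria and peroxisomes, 0.22 ± 0.05 higher (adjusted p = 0.00725) in HFpEF-FoxO1-sh than in Control. In HFpEF-scr against Control, Mgll, the monoacylglycerol lipase, was 0.48 ± 0.13 higher (adjusted p = 0.0355) and the beta-adrenergic receptor gene Adrb1 changed by -0.44 ± 0.11 (adjusted p = 0.0211). The call of Lipe was lost without Control 2 (adjusted p = 0.0537), Control 5 (0.0523), HFpEF-scr 2 (0.0664) or HFpEF-scr 4 (0.061), without HFpEF-scr 1 and 2 together (0.166), with just the 2 groups fitted (0.0689) and with the immediate early score (0.14). That of Adrb1 was lost without HFpEF-scr 2 (adjusted p = 0.0556) or HFpEF-scr 4 (0.0563), without HFpEF-scr 1 and 2 together (0.0688) and with the immediate early score (0.0987). That of Mgll was lost without Control 2 (adjusted p = 0.0581), Control 3 (0.079), Control 4 (0.0583) or Control 5 (0.0773), in a fit of the 2 groups alone (0.0934), with the immediate early score (0.116) and with the clock index (0.0699). The log2 fold change of Mgll was 0.23 without HFpEF-scr 1 (adjusted p = 0.018) and 0.26 without HFpEF-scr 1 and 2 (adjusted p = 0.0358), both still called. HFpEF-scr against Control called 1 gene of the list without Control 2, Control 5, HFpEF-scr 2 or HFpEF-scr 4, and 6 without HFpEF-scr 1. Abhd5, the coactivator of ATGL, and Hilpda, another inhibitor of it, were chosen after their values were seen and were not called in any comparison. Abhd5 averaged 46.7 ± 1.10 CPM in HFpEF-FoxO1-sh, 47.7 ± 1.53 CPM in HFpEF-scr and 45.8 ± 2.70 CPM in Control (SD), and Hilpda 2.58 ± 0.272 CPM in HFpEF-FoxO1-sh, 2.15 ± 0.959 CPM in HFpEF-scr and 2.67 ± 0.209 CPM in Control.

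Of 29 tested genes of droplet formation and surface, 5 were called higher and 1 lower in HFpEF-FoxO1-sh against Control, 1 higher in HFpEF-scr against Control and 1 higher in HFpEF-FoxO1-sh against HFpEF-scr, with medians of 0.01, 0.02 and 0.003. In the same order, 13.0%, 7.37% and 3.58% of all genes were called in either direction. Hsd17b11, a dehydrogenase found on droplets, averaged 48.8 ± 4.28 CPM in HFpEF-FoxO1-sh, 47.5 ± 7.18 CPM in HFpEF-scr and 31.4 ± 7.82 CPM in Control (SD). It changed by 0.64 ± 0.13 in HFpEF-FoxO1-sh (adjusted p = 0.00505) and by 0.60 ± 0.14 in HFpEF-scr (adjusted p = 0.0171) against Control, the second call being lost without HFpEF-scr 2 (adjusted p = 0.0579), without HFpEF-scr 1 and 2 together (0.0552), with just the 2 groups fitted (0.0532) and with the immediate early score (0.0818). Mettl7a1, which encodes a droplet-associated methyltransferase, was 0.40 ± 0.06 higher in HFpEF-FoxO1-sh than in HFpEF-scr (adjusted p = 0.00448) and 0.30 ± 0.06 higher than in Control (adjusted p = 0.00389), the first of these being lost without HFpEF-scr 1 and 2 together (adjusted p = 0.0522) and with the clock index (adjusted p = 0.125). Vcp, an ATPase that extracts proteins from membranes, was 0.14 ± 0.04 higher in HFpEF-FoxO1-sh than in Control (adjusted p = 0.0177), a call lost with the clock index (adjusted p = 0.0721). Ehhadh, a peroxisomal enzyme and the PPAR-responsive gene called in HFpEF-FoxO1-sh against HFpEF-scr, changed by 0.44 ± 0.10 there (adjusted p = 0.0284), lost without HFpEF-scr 1 (adjusted p = 0.0554), HFpEF-scr 3 (0.0708), HFpEF-FoxO1-sh 1 (0.0659) or HFpEF-FoxO1-sh 4 (0.0699). Its call also ended without HFpEF-scr 1 and 2 together (0.55, adjusted p = 0.0707), with the immediate early score (adjusted p = 0.0645) and with the clock index (adjusted p = 0.264). Without HFpEF-scr 4, HFpEF-FoxO1-sh against HFpEF-scr called 2 genes of droplet formation and surface, 3 PPAR-responsive genes and 1 of lipolysis, and HFpEF-scr against Control called 2 of droplet formation and surface.

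**Figure D5:**
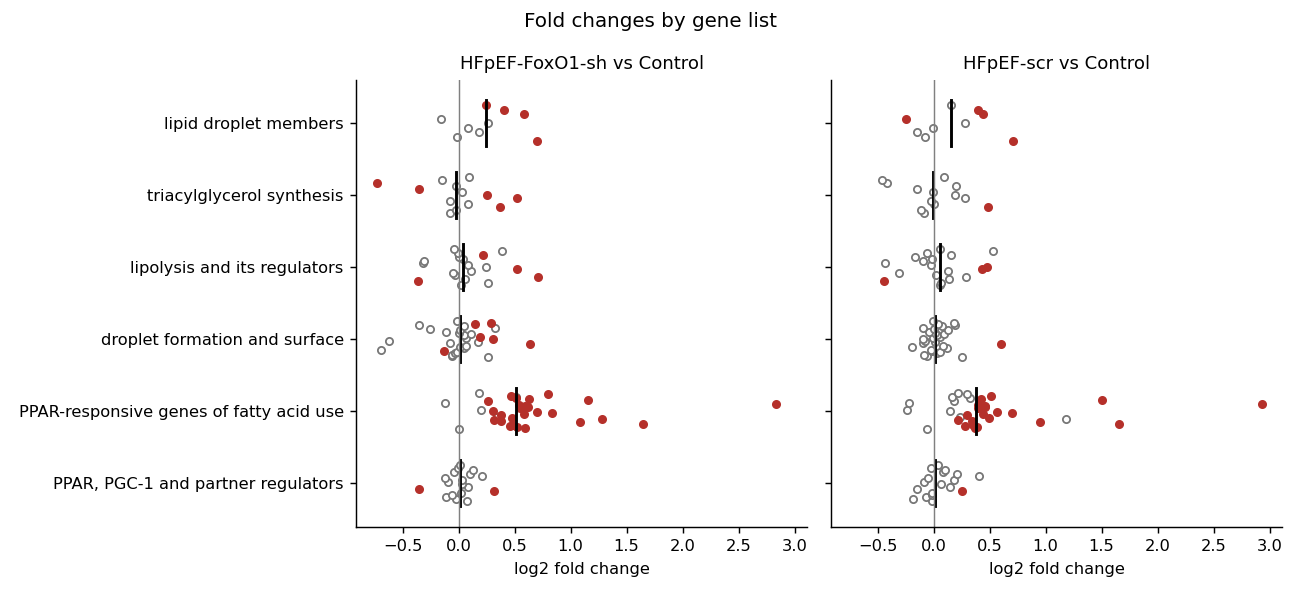
Log2 fold change (x axis) of each tested gene in the droplet set and in 5 lists of related genes (rows), for HFpEF-FoxO1-sh against Control on the left and HFpEF-scr against Control on the right, with red points for an adjusted p under 0.05, open points for the rest and a bar at the median. The row of PPAR-responsive genes stands to the right of 0 in both panels, with medians of 0.52 and 0.38, and the medians of the other 4 lists lie between -0.03 and 0.06.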

How the data were processed

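The deposited table holds expected counts per gene for each library. Per the submitters' processing notes, RSEM 1.2.15, Bowtie2 2.1.0 and the build mm10 were used, while the order of steps, annotation, filters and strand are not given in the sources used here. The members and lists were chosen with earlier results of these data known. Each column was tied to its sample by the number in its header, which is that sample's description, and 27 gene symbols that had turned into dates were kept as unnamed genes. Expected counts were rounded to whole numbers, scaled by TMM and filtered with filterByExpr, which left 13588 of 24054 genes. The quasi-likelihood test of edgeR 4.0.16 (R 4.3.3) was fitted to all 14 libraries with 1 coefficient per group, two-sided, and p-values were Benjamini-Hochberg adjusted over all genes tested. The common biological coefficient of variation was 0.0999. The fit was tested on simulated data. No 2 libraries of a group held identical values or differed as little as sampling noise. The genes named are all members, up to 3 called genes of the smallest p from each pathway list and comparison, and the gene most alike to each called member. A gene that this rule names is not reported here. Alternatives were DESeq2 1.42.0, limma 3.58.1 with voom, DESeq2 size factors, other filters, a fit of the 2 groups, a replicate block, the immediate early score or clock index as a covariate, and leaving out libraries. Correlations used permutation within groups with 100000 resamples. Gene positions and lengths are from GENCODE vM21 on GRCm38. Intervals are at 95%, and limits for a count of 0 cover counting error only. Python 3.11.15 with matplotlib 3.10.9 made the figures.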

Additional observations from a re-analysis of the deposited data

Results flagged for a closer look

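Pnpla2 in Control 2 was 344.6 CPM, below the other 4 controls, of which the nearest was 390.3 CPM and the highest 407 CPM. Without Control 2, the call of Pnpla2 in HFpEF-FoxO1-sh against Control held. The total of Control 1 was 21.25 M counts, above the other controls, of which the nearest had 15.11 M. These were the 2 libraries that stood apart in 42 groups of values examined, and chance alone gives such a library in about 1 in 20 groups.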

How the results depend on the processing

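Over the alternatives, 176 of 180 fold changes of the droplet genes in HFpEF-FoxO1-sh against Control kept their direction and side of the threshold, as did 146 of 171 in HFpEF-FoxO1-sh against HFpEF-scr and 138 of 171 in HFpEF-scr against Control. In HFpEF-scr against Control, all genes called numbered 1001, and 504 in a fit of the 2 groups alone, 560 without HFpEF-scr 1 and 2, 400 with the immediate early score and 537 to 1106 without 1 library. The droplet genes called there numbered 4, 1 in each of those 3 settings and 1 to 5 without 1 library. In HFpEF-FoxO1-sh against HFpEF-scr, all genes called numbered 486, and 857 by DESeq2, 54 without HFpEF-scr 1 and 2, 239 with the immediate early score, 18 with the clock index and 162 to 668 without 1 library. The droplet genes called numbered 1, and 0 without HFpEF-scr 1 and 2, 0 with the clock index and 0 to 1 without 1 library, where the pathway genes called, 2, became 4 by DESeq2, 0 without HFpEF-scr 1 and 2, 1 with the immediate early score, 0 with the clock index and 1 to 6 without 1 library. In HFpEF-FoxO1-sh against Control, 1760 genes became 1009 with the clock index. The cause was not tested. Replicate numbers did not pair the libraries (same-number correlations -0.194 to 0.111, 2 of 14 libraries closest to their own number). With the replicate block HFpEF-FoxO1-sh against HFpEF-scr called 291 genes, 0 droplet genes and 1 pathway gene, Plin2 there was 0.0073, Dgat2 (adjusted p = 0.0514) and Ehhadh (adjusted p = 0.057) lost their calls, and so did Plin4 in HFpEF-scr against Control (adjusted p = 0.0504). Directions turned for genes whose main estimates were near 0, although some of the turned values, such as those of Plin2, were larger. In HFpEF-FoxO1-sh against HFpEF-scr, without HFpEF-scr 1 and 2, Plin2 was 0.1655, Cidea 0.0354 and Foxo1 0.0641, with the immediate early score Cidea was 0.0640 and Foxo1 0.0292, and with the clock index Plin2 was 0.0283 and Cidea 0.0093. Without 1 library, Plin2 ran from -0.129 to 0.1145, Plin5 from -0.0470 to 0.0732, Cidea from -0.0303 to 0.0157 and Foxo1 from -0.0753 to 0.0152. G0s2 in HFpEF-scr against Control was 0.0008 with the immediate early score and ran from -0.0545 to 0.0771 without 1 library, and Dgat1 in HFpEF-FoxO1-sh against Control was 0.0179 with the clock index. With the longest transcript as the length, 4 positions in the order of levels differed, and 2 with means for medians. The ratio of Plin5 to Plin2 was then 2.475, 2.512 and 2.221, and that of Dgat2 to Dgat1 20.36, 17.14 and 17.76, in HFpEF-FoxO1-sh, HFpEF-scr and Control. At this depth Cidec could not be compared.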
